A study of Homo sapiens with 14 samples.

Results

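The genes described here build the tight junctions, desmosomes and gap junctions of epithelial cells, together with the catenins and splicing factors tied to them. They were chosen by name as 34 genes, each taken at the named locus with its highest mean level. The choice was made with earlier results of these data known, so counts over these genes are no independent test of the set. Of these, 31 reached at least 1 FPKM (fragments scaled by transcript length and by library size) in at least 2 libraries and were tested, out of 13137 tested loci among 27543 named ones. The 3 genes below that filter were CLDN3, which stood at 0.221 FPKM at most, PKP1, at 0.144 at most, and GJB6, which was listed at 0 in every library. Just inside the filter were GJA1, between 0 and 3.11 FPKM, and CLDN23, between 0.258 and 4.38. TJP3 was low too, between 0.208 and 9.29, and reached 1 FPKM in 8 libraries.

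RNA came from MCF-10A cells, an immortalised human mammary epithelial line, harvested 2 days after retroviral infection, and was read as 14 libraries in 7 groups of 2. The groups carried the empty pMSCV Hygro vector, YAP 5SA (a form of the TEAD coactivator YAP that resists inhibition by the Hippo pathway), the empty Puro vector, or 1 of 4 forms of MRTFB, a coactivator of the transcription factor SRF. All MRTFB forms were dN forms, which cannot bind G-actin. The first, MRTFB dN, was otherwise wild type, dPY could not bind YAP, Y305A could not bind SRF, and Y305A/dPY could bind neither. The labels name no vector for each construct, so YAP 5SA was set against the Hygro vector and the MRTFB forms against the Puro vector, with the other vector beside it. They also do not say whether replicates were separate cultures, so p-values may measure only technical spread, and in bulk RNA fewer expressing cells and less RNA per cell cannot be told apart.

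Tight junctions seal the space between epithelial cells: claudins and the MARVEL proteins occludin and tricellulin form the strands, and scaffolds such as ZO-1, ZO-3 and cingulin tie them to actin. Desmosomes join the keratin networks of neighbouring cells through desmogleins and desmocollins outside the cell and plakoglobin, plakophilins and desmoplakin in the plaque. Gap junctions are channels of connexins, and the ESRP proteins set the epithelial pattern of splicing. SNAI and ZEB repressors of epithelial genes bind E-boxes with the core CACCTG, which reads CAGGTG on the other strand.

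The RNA carried the introduced genes: MRTFB, listed as MKL2, had 165 to 610 FPKM in its 8 libraries and 3.06 to 6.6 elsewhere, and YAP1 had 625 and 529 in YAP 5SA and 18.3 to 50.9 elsewhere. MKL2 levels of the Y305A forms (404 and 294, and 610 and 343 for Y305A/dPY) lay above those of dPY (286 and 171) and, with overlap for Y305A, of MRTFB dN (300 and 165), and their part in the results was not tested. Relative depth ran from 0.315 to 1.39 with Hygro vector replicate 1 at 1. Puro vector replicate 1 was the shallowest and stood apart, with 58.77% of its FPKM sum in unnamed loci against 9.99% to 38.57% elsewhere. MRTFB dN dPY replicate 1 held only zeros on a stretch of the genome that includes CLDN3, CLDN4, CLDN12, CLDN23 and ESRP1. These were treated as missing, so the values of these genes in the dPY group rest on 1 library. All 10 basal mammary epithelial markers were tested, and their summed level, most of it KRT17 in MRTFB dN (43206 and 22205 FPKM), ran from 2460 and 2563 FPKM in the Puro vector to 29772 and 54038 in MRTFB dN. It was 14670 and 26090 in the Hygro vector, 5578 and 7989 in YAP 5SA, 24827 and 45697 in dPY, 7036 and 20005 in Y305A, and 6464 and 12763 in Y305A/dPY. In Y305A against MRTFB dN 4 of the 10 were higher and 1, KRT17, lower, with a median of 0.03. The 7 luminal markers, with PGR at 0 throughout, summed to 1157 and 1878 in the Hygro vector, 3920 and 4462 in YAP 5SA, 255 and 540 in the Puro vector, 6793 and 9091 in MRTFB dN, 5357 and 7425 in dPY, 19.3 and 29173 in Y305A and 20.5 and 21788 in Y305A/dPY. In both Y305A forms KRT8 and KRT18 were listed at 0 in replicate 1 and stood between 9623 and 16608 in replicate 2. Of the markers of other cells, 5 of 8 fibroblast, 4 of 5 endothelial and 4 of 7 leukocyte genes stayed under 1 FPKM in every library. CDH5, an endothelial cadherin, ran from 0 to 14.6 FPKM and was highest in the Y305A forms (4.51 to 14.6). CD14 ran from 1.31 to 149, with 30.6 to 149 in the Y305A forms. That range overlapped the vectors, with CD14 at 27.9 and 139 in the Puro vector and 32.2 and 9.17 in the Hygro vector. In YAP 5SA, MRTFB dN and dPY CD14 was lower, at 1.31 to 4.01. The part of these markers in the results was not tested.

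Of the 34 genes, 23 had a promoter in the RefSeq table (GRCh38.p14, another build than the hg19 of the expression values), with 34 start sites. In the 250 bases before the start, CACCTG on either strand was found at 9 of 34 starts (26.5%), against 6143 of 35116 (17.5%) starts in all. The 8 genes were CLDN7, OCLN, TJP1, TJP3, DSG2, DSC2, DSP and JUP. The TEAD motif GGAATG, on either strand, was at 0 of the 34 starts and 11.9% of all starts, and the CArG box of SRF at 0 and 1.16%. The E-boxes of the genes that moved in several comparisons below are shown with their flanking bases, 5′ to 3′ on the gene's strand, with the core in capitals. The windows lie at chr17:7262639-7262660, chr17:7262600-7262621, chr17:7262485-7262506 and chr17:7262479-7262495 (CLDN7, minus strand, the last 2 overlapping), chr5:69492506-69492527 and chr5:69492649-69492670 (OCLN, plus), chr19:3721722-3721736 (TJP3, plus), chr6:7541485-7541506 and chr6:7541578-7541599 (DSP, plus), chr18:31102564-31102585 (DSC2, minus), and chr17:41786017-41786038 and chr17:41786006-41786027 (JUP, minus, overlapping).
CLDN7 site A: ttcctcctCACCTGggcaagga
CLDN7 site B: ttccggttCAGGTGagtgtccc
CLDN7 site C: catatactCAGGTGcgccccac
CLDN7 site D: gtgcgcccCACCTGtcc
OCLN site A: ccgagtttCAGGTGaattggtc
OCLN site B: ggacgcagCAGGTGggactcgc
TJP3: aagaggggCAGGTGc
DSP site A: ggcgggcgCAGGTGgggagggg
DSP site B: aaaccggcCAGGTGtggcctag
DSC2: ctttctgtCAGGTGggcctcag
JUP site A: tctggcccCACCTGccgagcag
JUP site B: ctgccgagCAGGTGagcgcacg
CLDN7 holds 4 of these cores. The 8 genes with a core include 3 that were higher (CLDN7, OCLN and TJP3) and 2 that were lower (DSP and DSC2) in the MRTFB forms without SRF binding, as given below. The others, JUP, TJP1 and DSG2, did not pass there. Genes outside the 23 were not searched for a core.

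**Figure D1:**
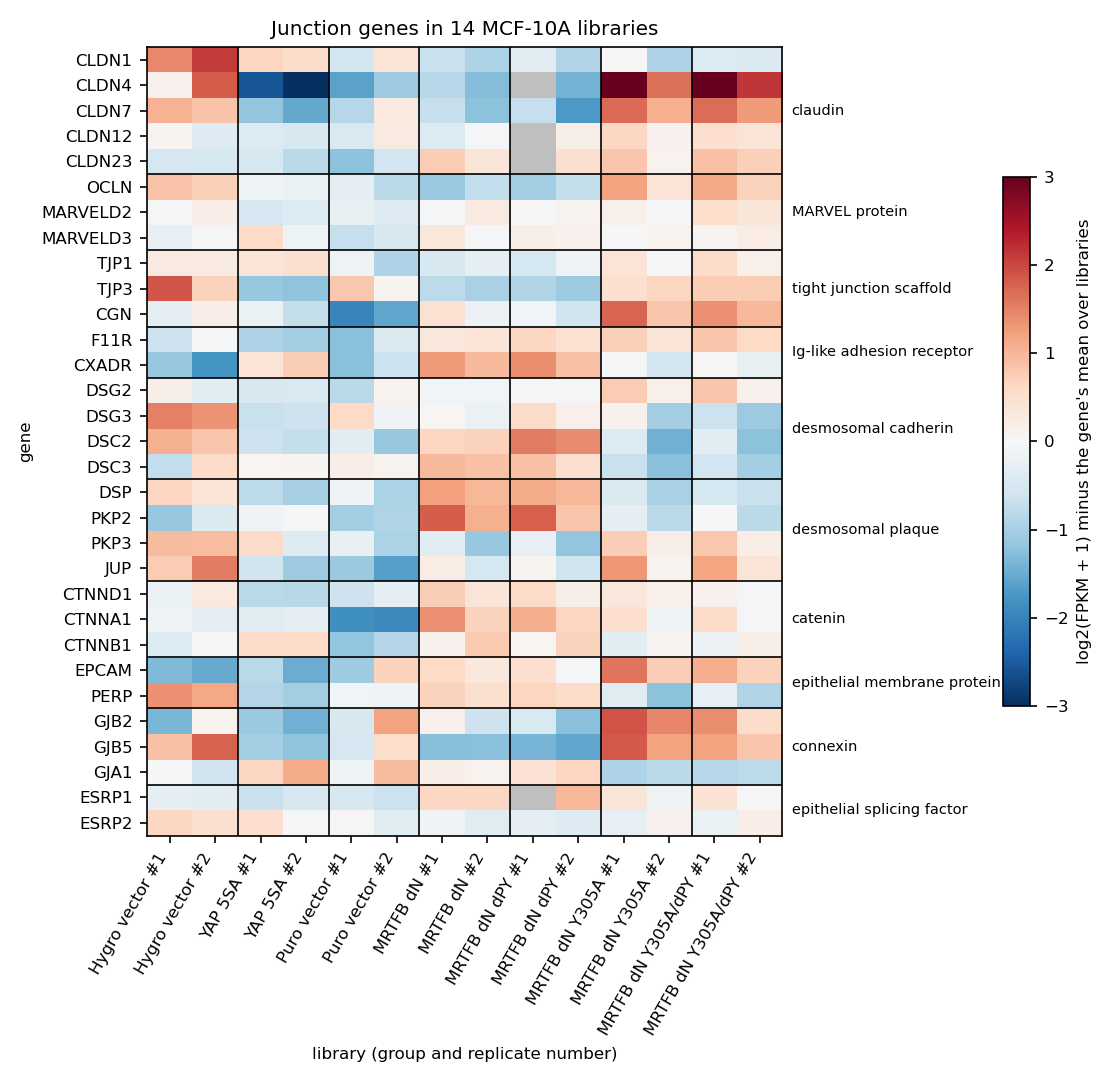
Each row is 1 of the 31 tested genes, ordered by role, and each column 1 of the 14 libraries; colour gives log2(FPKM + 1) minus the gene's mean over libraries, and grey marks missing values. CLDN4, CLDN7, OCLN and GJB5 are red in the 4 Y305A libraries, while DSC3, DSP and PKP2 are red in the MRTFB dN and dPY libraries. In the Hygro vector libraries CLDN7, OCLN, GJB5 and DSP also lie above their means.

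The effect of hyperactive YAP was read from YAP 5SA against the Hygro vector. The claudins CLDN4 and CLDN7, the scaffold TJP3, the desmosomal genes DSG3, DSC2, DSP and JUP, PERP and the connexin GJB5 fell with YAP 5SA, and the adhesion receptor CXADR rose. Of the 31 genes 9 fell and 1 rose at an adjusted p under 0.05 (limma, Benjamini-Hochberg over all loci), where 4.32% of all tested loci fell and 3.93% rose. The median difference was -0.53 on the log2 scale over these genes and -0.01 over all loci. By role, 3 of 11 tight junction genes (claudins, MARVEL proteins and scaffolds) and 4 of 8 desmosomal genes fell, and none of either rose. The adhesion receptors F11R and CXADR, of which CXADR rose, are counted in neither group.

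CLDN4, a claudin of the strands, stood at 250 and 809 FPKM in the Hygro vector and at 37.7 and 21.5 in YAP 5SA. It fell by 3.94 ± 0.68 (SE) on the log2(FPKM + 1) scale used throughout, with an adjusted p of 0.009 in limma. CLDN7, another claudin, went from 865 and 756 to 182 and 142 FPKM and fell by 2.33 ± 0.49 (adjusted p = 0.017). TJP3, which encodes ZO-3, went from 9.29 and 3.51 to 0.272 and 0.208 and fell by 2.46 ± 0.35 (adjusted p = 0.0033). For all 3 genes both YAP 5SA libraries lay below both Hygro libraries.

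Among desmosomal genes DSG3, a desmoglein, went from 216 and 193 FPKM to 47.1 and 48.4 (-2.07 ± 0.39, adjusted p = 0.01). DSP, desmoplakin, which anchors keratin filaments, went from 204 and 172 to 75.2 and 64.4 (-1.42 ± 0.33, adjusted p = 0.027). DSC2, a desmocollin, and JUP, plakoglobin, fell by 1.61 ± 0.40 (adjusted p = 0.033) and 1.98 ± 0.50 (adjusted p = 0.036). The other desmocollin, DSC3, was at 16.4 and 42.8 FPKM in the Hygro vector and 29.3 and 30 in YAP 5SA, and its groups overlapped. PERP, a desmosome-associated membrane protein and p53 target, went from 651 and 559 to 136 and 122 (-2.22 ± 0.36, adjusted p = 0.0053). GJB5, which encodes connexin 31.1, went from 88.9 and 165 to 22.6 and 20.3 (-2.44 ± 0.39, adjusted p = 0.0053). CXADR, the coxsackievirus and adenovirus receptor, rose from 3.37 and 1.75 to 11.6 and 15 FPKM (2.03 ± 0.33, adjusted p = 0.0056).

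These calls rest on few libraries: leaving out YAP 5SA replicate 2 ended 9 of the 10, CLDN4 among them (-3.54, adjusted p = 0.1). Omission of Hygro vector replicate 1 ended 5 (JUP: -2.37, adjusted p = 0.058), of YAP 5SA replicate 1 also 5 (CLDN7: -2.50, adjusted p = 0.077) and of Hygro vector replicate 2 ended 3 (JUP: -1.59, adjusted p = 0.17), and TJP3 was the 1 gene that passed each time. Fitted on the compared groups alone, no gene passed.

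The choice of empty vector mattered, as the libraries of the 2 vectors differed from each other. Whether this came from the vectors or from library quality, such as that of the shallow Puro vector replicate 1, cannot be told apart. Puro vector libraries were lower than Hygro vector libraries in 10 of the 31 genes and higher in none, against 8.53% and 5.68% of all loci, with a median of -0.80 against -0.07. The genes were CLDN1, CLDN4, OCLN, CGN, DSC2, PKP3, JUP, CTNNA1, PERP and GJB5. JUP stood at 223 and 384 FPKM in the Hygro vector and 61 and 41.5 in the Puro vector (-2.52 ± 0.50, adjusted p = 0.015), and CLDN1, a claudin of the epidermal barrier, at 117 and 184 against 28.5 and 56.7 (-1.84 ± 0.41, adjusted p = 0.02). In both genes the Puro vector libraries were the lower ones. CTNNA1, alpha-catenin, which links cadherins to actin, stood at 204 and 184 against 61.4 and 57.7 (-1.69 ± 0.36, adjusted p = 0.018). None of the 10 calls held whichever library was left out: all 10 were lost without Hygro vector replicate 2 (JUP: -2.12, adjusted p = 0.076), 6 without Puro vector replicate 1, and 5 each without the other 2.

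Against the Puro vector, YAP 5SA showed 4 calls among these genes, where 9.81% of all loci passed. TJP3 fell again (-1.61) and CXADR rose again (1.53), and these 2 were the ones called against both vectors. The catenins CTNNA1 (1.56) and CTNNB1 (1.59) passed against the Puro vector and stood at -0.13 and 0.79 against the Hygro vector. CLDN4 (-1.61), GJB5 (-1.14) and PERP (-0.85) kept their sign without passing, and DSC2 (0.08) and JUP (0.54) changed sign.

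**Figure D2:**
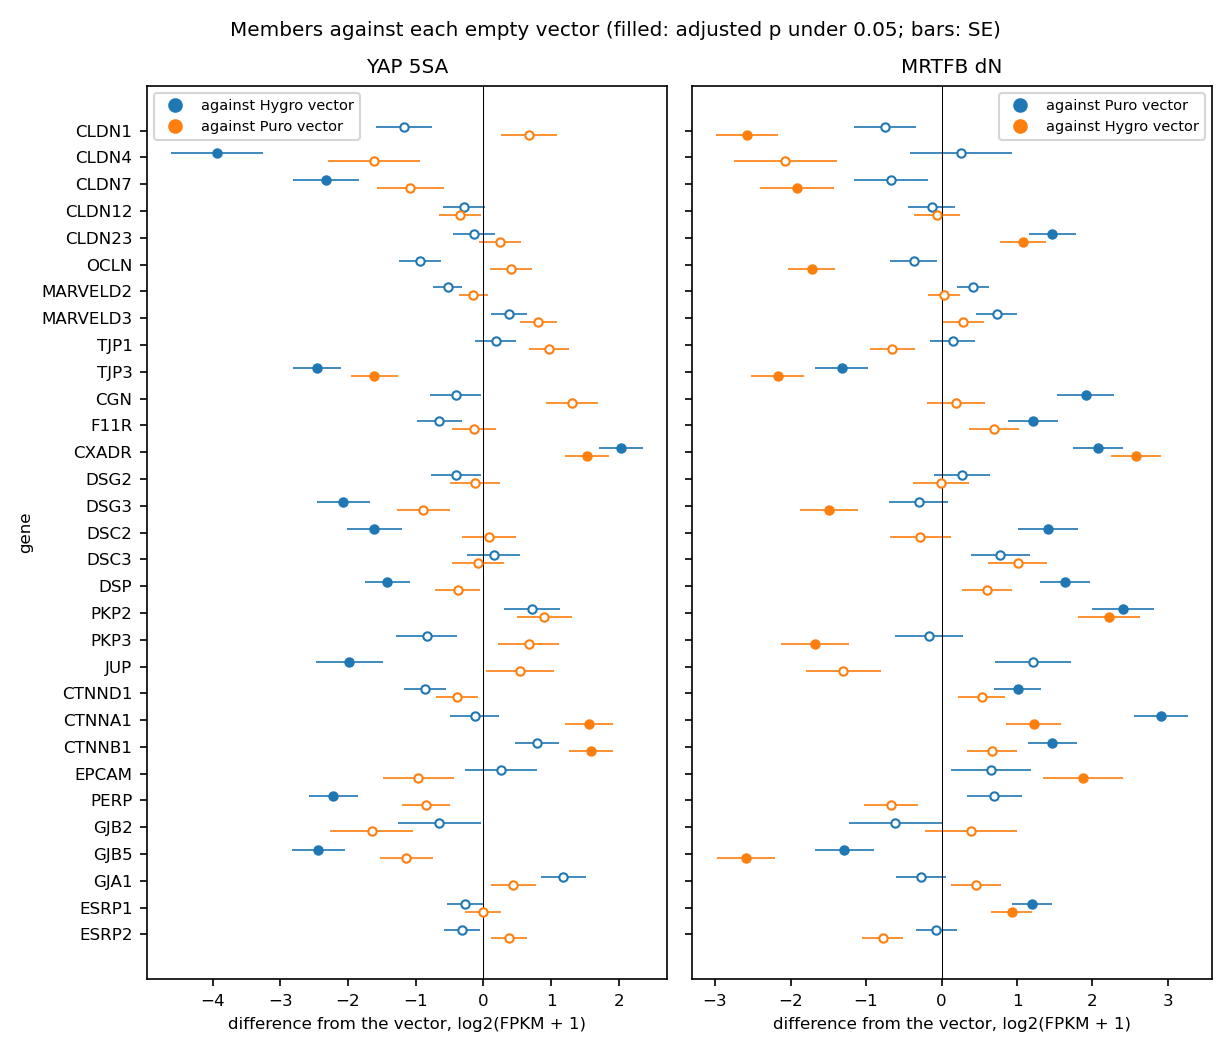
Points give the difference of YAP 5SA (left) and MRTFB dN (right) from each empty vector for the 31 genes on the log2(FPKM + 1) scale, with SE bars; filled points have an adjusted p under 0.05. TJP3 lies to the left and CXADR to the right of zero in both panels against both vectors, while DSC2 and JUP lie on different sides of zero depending on the vector.

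The effect of MRTFB freed from actin was read from MRTFB dN against the Puro vector. The 3 catenins, the desmosomal genes DSC2, DSP and PKP2 (3 of 8 tested), CLDN23, the adhesion receptors F11R and CXADR, the scaffold CGN and the splicing factor ESRP1 rose with MRTFB dN, and TJP3 and GJB5 fell. Of the 31 genes 11 rose and 2 fell in a comparison in which 21.8% and 15% of all loci did so. The median was 0.65 over these genes and 0.09 over all loci.

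CTNNA1 rose most, from 61.4 and 57.7 FPKM to 576 and 359 (2.91 ± 0.36, adjusted p = 0.00023 in limma). PKP2, a plakophilin of the desmosomal plaque, rose from 9.11 and 9.93 to 71.3 and 41.8 (2.40 ± 0.41, adjusted p = 0.0017). CXADR rose from 2.97 and 5.11 to 22 and 17.7 (2.07 ± 0.33, adjusted p = 0.0011). All 3 genes had both MRTFB dN libraries above every vector library of either kind. CGN, cingulin, rose from 5.51 and 7.62 to 34 and 21.7 (1.91 ± 0.38, adjusted p = 0.0035), a level that overlapped the Hygro vector (19.8 and 28.1). DSP rose from 122 and 67.2 to 307 and 263 (1.64 ± 0.33, adjusted p = 0.0039). CTNNB1, beta-catenin, rose by 1.47 ± 0.33 (adjusted p = 0.0064), and CTNND1, p120-catenin, whose locus also holds 3 other genes, by 1.01 ± 0.31 (adjusted p = 0.027).

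ESRP1 went from 26.3 and 23.3 FPKM to 58.3 and 57.6 (1.20 ± 0.27, adjusted p = 0.0074), whereas ESRP2 was at 15.8 and 11.8 in the Puro vector and 14.2 and 11.8 in MRTFB dN. F11R, the junctional adhesion molecule JAM-A, rose from 70 and 123 to 212 and 220 (1.21 ± 0.33, adjusted p = 0.017). CLDN23, a low claudin in these cells, rose from 0.258 and 0.963 to 4 and 2.76 (1.47 ± 0.31, adjusted p = 0.0062), and DSC2 rose by 1.41 ± 0.40 (adjusted p = 0.019). In the other direction TJP3 went from 3.86 and 1.94 to 0.612 and 0.415 (-1.32 ± 0.35, adjusted p = 0.015) and GJB5 from 33.7 and 69.6 to 19.1 and 19.4 (-1.29 ± 0.39, adjusted p = 0.026).

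Against the Hygro vector 6 of these genes were higher and 7 lower, where 19.1% of all loci passed. CLDN23, CXADR, PKP2, CTNNA1 and ESRP1 were higher and TJP3 and GJB5 lower against both vectors. The strand genes CLDN1 (-2.58), CLDN7 (-1.92) and OCLN (-1.72), with DSG3 (-1.49) and PKP3 (-1.68), passed as lower against the Hygro vector and not against the Puro vector, and EPCAM, an epithelial adhesion protein, as higher (1.88). DSC2 (-0.28) changed sign. CGN, CXADR, DSP, PKP2, CTNNA1, CTNNB1 and ESRP1 passed against the Puro vector whichever library was left out. The other 6 were lost without MRTFB dN replicate 1, 4 without its replicate 2, 3 without Puro vector replicate 1 (F11R: 0.81, adjusted p = 0.1) and 2 without Puro vector replicate 2 (DSC2: 1.01, adjusted p = 0.1).

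YAP 5SA and MRTFB dN were set against each other as the difference of their responses, each from its own vector. Of the 31 genes 13 had a higher response to MRTFB dN and 1 a lower one, against 17.9% and 11.1% of all loci, and the median was 1.14 against 0.16. DSP, lower with YAP 5SA and higher with MRTFB dN, had a difference of 3.06 ± 0.47 (adjusted p = 0.0016 in limma), and DSC2, with the same pattern, 3.02 ± 0.56 (adjusted p = 0.0039). CTNNA1 differed by 3.04 ± 0.51 (adjusted p = 0.0026), PERP by 2.92 ± 0.50 (adjusted p = 0.0029) and JUP by 3.19 ± 0.71 (adjusted p = 0.0088). The lower response was that of GJA1, connexin 43, which stayed at or below 3.11 FPKM (-1.45 ± 0.47, adjusted p = 0.041).

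This difference contains the gap between the vectors. Set directly against YAP 5SA, with no vector in the contrast (chosen after the data were seen), MRTFB dN was higher in 10 genes and lower in 1, where 22.1% of all loci passed. DSP stood at 307 and 263 FPKM against 75.2 and 64.4 (2.01 ± 0.33, adjusted p = 0.0017), and PERP (1.55), DSC2 (1.33), CTNNA1 (1.35), CTNND1 (1.40), F11R (1.35), PKP2 (by 1.5), CLDN23 (1.22), ESRP1 (1.20) and EPCAM (1.62) were higher too, with CLDN1 lower (-1.42). JUP (0.68, adjusted p = 0.36) and CLDN4 (1.87, adjusted p = 0.078) did not pass without the vectors. Of the 14 differences of response, CTNNA1, CTNND1, DSC2, DSP, JUP and PERP passed whichever library was left out, and most were lost, 7, without MRTFB dN replicate 1.

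The part of SRF binding was read from MRTFB dN Y305A against MRTFB dN and, in forms that also lack YAP binding, from Y305A/dPY against dPY. These 2 comparisons share no library and no vector enters them. In both, the strand genes CLDN4, CLDN7 and OCLN, the scaffold TJP3 and the connexin GJB5 were higher, and the desmosomal genes DSC2, DSC3, DSP and PKP2 lower, without SRF binding. Of the 31 genes 5 were higher and 6 lower with YAP binding intact, against 6.13% and 10.6% of all loci, and 6 were higher and 8 lower without it, against 6.74% and 10.7%. The 5 genes named first were those higher in both, and CXADR and PERP completed the 6 lower in both. By role, 4 and then 5 of 11 tight junction genes were higher and none lower, and 4 and then 5 of 8 desmosomal genes were lower and none higher. The 11 leave out the adhesion receptors F11R and CXADR, of which CXADR was lower in both tests.

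CLDN4 stood at 125 and 91.2 FPKM in MRTFB dN and at 2220 and 714 in Y305A. It was higher by 3.55 ± 0.68 (adjusted p = 0.0057 in limma), and in the pair without YAP binding it stood at 84.4 in the 1 dPY library with a value against 2097 and 1009 (4.09 ± 0.84, adjusted p = 0.0078). CLDN7 went from 257 and 178 to 1363 and 879 (2.35 ± 0.49, adjusted p = 0.0071) and from 258 and 126 to 1337 and 1004 (2.67 ± 0.49, adjusted p = 0.0033). Every Y305A library was above every other library of the set for CLDN7, and for CLDN4 only Hygro vector replicate 2, at 809, reached into their range.

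OCLN, occludin, went from 2.39 and 3.42 FPKM to 16.1 and 8.69 (1.74 ± 0.31, adjusted p = 0.0031) and from 2.59 and 3.51 to 15.2 and 10.9 (1.79 ± 0.31, adjusted p = 0.0026). TJP3 went from 0.612 and 0.415 to 2.87 and 3.38 (1.45 ± 0.35, adjusted p = 0.017) and from 0.491 and 0.3 to 3.76 and 3.75 (1.77 ± 0.35, adjusted p = 0.0056). For both genes the Y305A forms overlapped the vector libraries, in which OCLN lay between 3.2 and 12.3 FPKM and TJP3 between 1.94 and 9.29. GJB5 had the smallest adjusted p of these genes in both tests: it went from 19.1 and 19.4 to 174 and 112 (2.80 ± 0.39, adjusted p = 0.00058) and from 17.7 and 15.5 to 111 and 85.6 (2.48 ± 0.39, adjusted p = 0.0013). In the Hygro vector GJB5 stood at 88.9 and 165, within the range of the Y305A forms. The related connexin GJB2 stood at 8.76 and 4.69 against 31.6 and 23.2 and at 5.42 and 2.68 against 22.2 and 11.9; its groups did not overlap but it did not pass (1.83 ± 0.61, adjusted p = 0.063 in the second test). CGN was at 34 and 21.7 against 84 and 44.3, and passed only without YAP binding (23 and 15.8 against 65 and 50.2, 1.53 ± 0.38, adjusted p = 0.017).

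Among the genes lower without SRF binding, DSP went from 307 and 263 FPKM to 96.8 and 66 (-1.82 ± 0.33, adjusted p = 0.0032) and from 285 and 261 to 90.8 and 82.3 (-1.65 ± 0.33, adjusted p = 0.0057). DSC2 went from 58.6 and 60.1 to 27.5 and 13.1 (-1.59 ± 0.40, adjusted p = 0.019) and from 111 and 100 to 29.1 and 15.3 (-2.27 ± 0.40, adjusted p = 0.0025). DSC3 went from 56.2 and 53 to 17.4 and 11.3 (-1.88 ± 0.39, adjusted p = 0.0068) and from 52.4 and 40.5 to 18.7 and 13.4 (-1.48 ± 0.39, adjusted p = 0.023). For all 3 genes the groups were apart in both tests. In the Puro vector DSP stood at 122 and 67.2 and DSC2 at 28.9 and 16.2, which overlapped their Y305A values. DSC3, at 32.4 and 30.2 in that vector, lay above its Y305A values. In the Hygro vector DSP (204 and 172) and DSC2 (78.9 and 66.3) lay above their Y305A values, and DSC3 (16.4 and 42.8) overlapped its own. PKP2 went from 71.3 and 41.8 to 15.8 and 10.7 (-1.99 ± 0.41, adjusted p = 0.0071), and from 70.3 and 35.8 to 19.6 and 10.8 (-1.72 ± 0.41, adjusted p = 0.016). CXADR fell by 1.44 ± 0.33 (adjusted p = 0.012) and 1.22 ± 0.33 (adjusted p = 0.027). PERP fell by 1.38 ± 0.36 (adjusted p = 0.022) and 1.19 ± 0.36 (adjusted p = 0.042).

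Not every desmosomal gene followed. DSG2, the most widely expressed desmoglein, stood at 97.6 and 96.8 FPKM in MRTFB dN against 175 and 114 in Y305A, PKP3 at 28.1 and 15.9 against 61.2 and 41.6, and JUP at 153 and 90.9 against 326 and 142. All 3 had a higher mean in Y305A and did not pass, and for JUP the groups overlapped. The 3 catenins did not pass but went the other way, towards lower levels in Y305A. CTNNA1 was at 576 and 359 against 316 and 203, and CTNNB1 at 80.2 and 127 against 59.5 and 77.6. CTNND1 was at 381 and 299 against 287 and 251. Both Y305A libraries were the lower ones in each catenin.

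**Figure D3:**
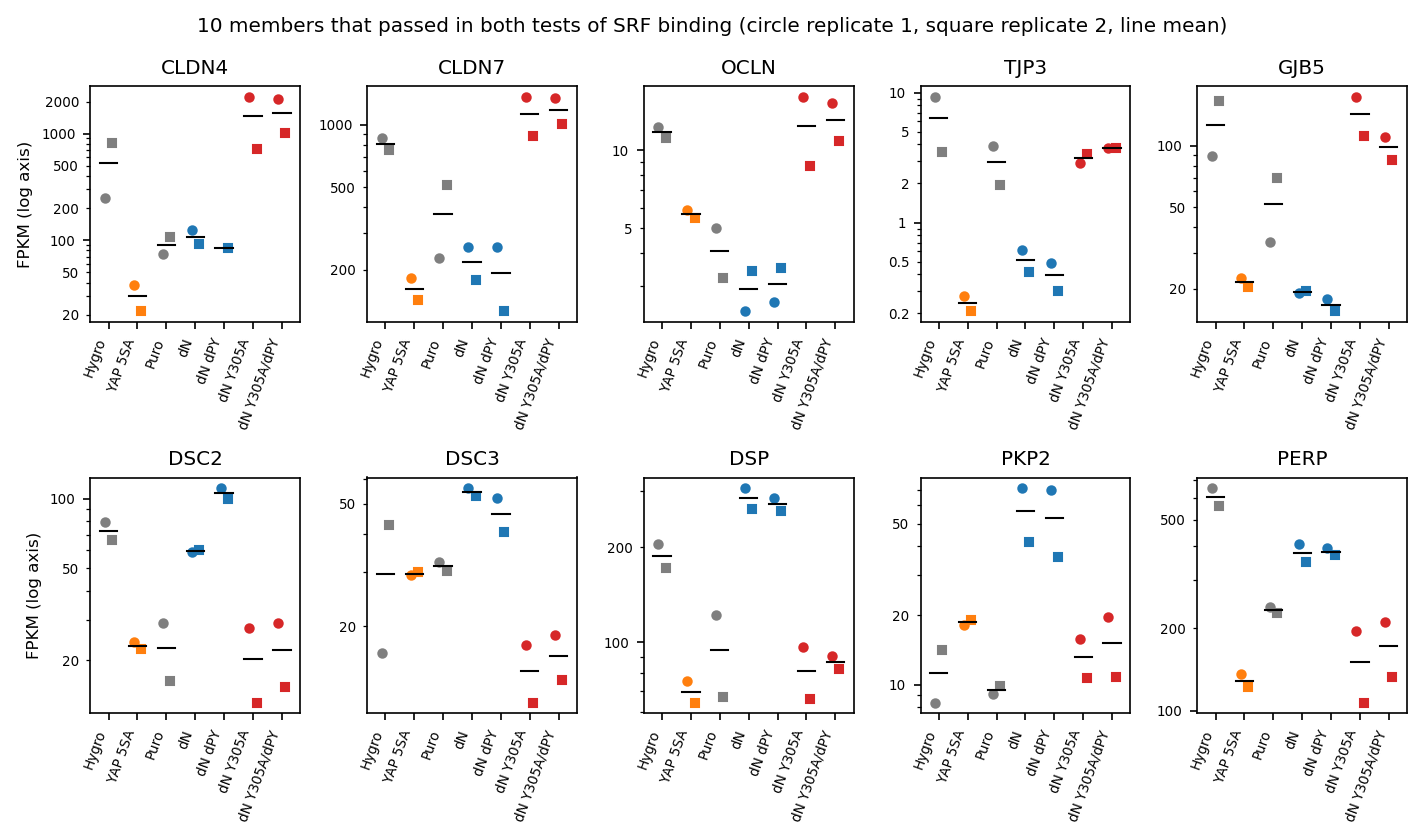
FPKM on a log axis in each library for 10 genes that passed in both tests of SRF binding, by group, with a line at the group mean. In the top row CLDN4, CLDN7, OCLN, TJP3 and GJB5 are higher in the Y305A forms (red) than in MRTFB dN and dPY (blue), and in the bottom row DSC2, DSC3, DSP, PKP2 and PERP are lower.

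Over the 31 genes the 2 differences had Pearson's r = 0.976 and Spearman's rho = 0.97, against 0.878 and 0.876 over all 13137 loci, and 29 of 31 (93.5%) had the same sign, against 84.9% of loci. Genes are not independent replicates, and these values describe 2 pairs of groups. Same-numbered libraries also deviated together over loci, with correlations of 0.583 for MRTFB dN with dPY and 0.64 for Y305A with Y305A/dPY. The 2 tests may therefore not be independent. DSP, GJB5 and OCLN passed in both tests whichever library was left out. In the first test the other 8 calls were lost without 1 library or another, 6 of them without Y305A replicate 2 (PERP: -0.95, adjusted p = 0.21), 5 each without MRTFB dN replicate 1 or replicate 2 and 2 without Y305A replicate 1 (CLDN7: 2.04, adjusted p = 0.063). In the second 7 of 14 held throughout: CLDN4, CLDN7, OCLN, TJP3, GJB5, DSC2 and DSP. Between 4 and 6 of the other 7 were lost without each library in turn.

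**Figure D4:**
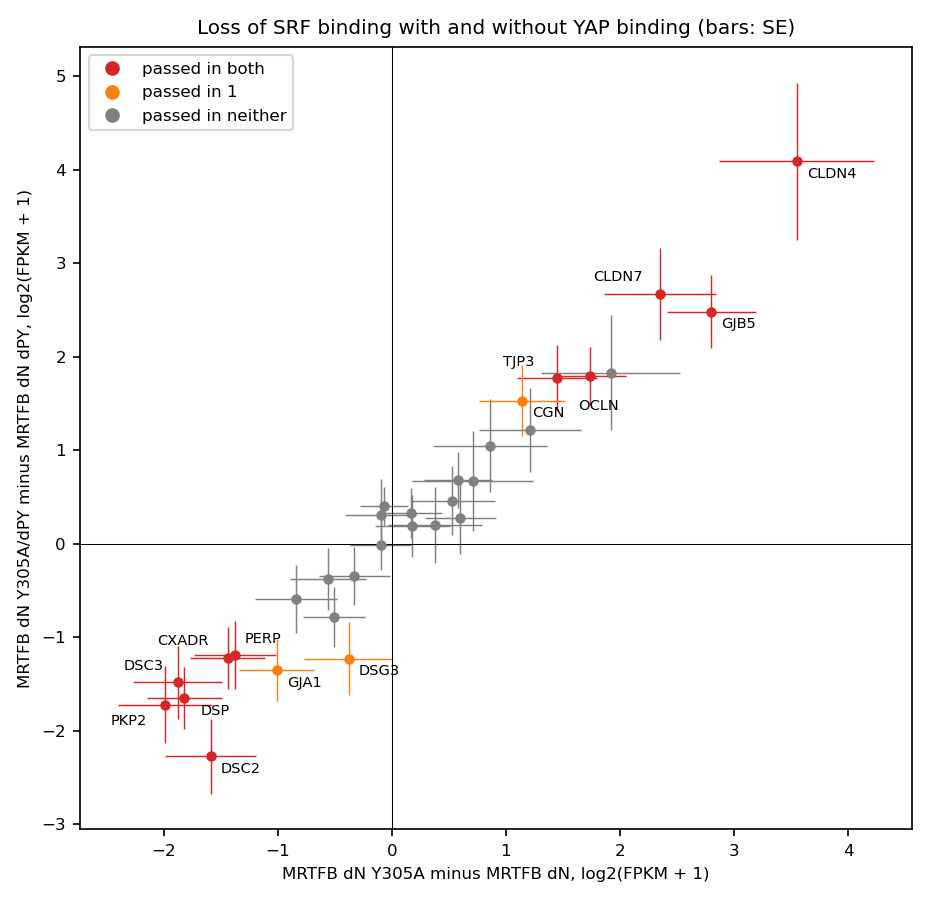
Each point is 1 of the 31 genes, with the log2(FPKM + 1) difference for loss of SRF binding in MRTFB dN on the x axis and in MRTFB dN dPY on the y axis, and SE bars; red genes passed in both tests. CLDN4, CLDN7, OCLN, TJP3 and GJB5 lie at the upper right and DSP, DSC2, DSC3, PKP2, CXADR and PERP at the lower left.

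Against the Puro vector the Y305A form was higher in 9 of the 31 genes and lower in 1, where 14.2% and 11% of all loci passed, and Y305A/dPY was higher in 11 and lower in 1, where 15% and 11.4% passed. CGN led by adjusted p, from 5.51 and 7.62 FPKM to 84 and 44.3 in Y305A (3.05 ± 0.38, adjusted p = 0.0017 in limma) and 65 and 50.2 in Y305A/dPY (2.96 ± 0.38, adjusted p = 0.0018). It was the 1 gene that passed whichever library was left out. CLDN4 (3.81 and 4.02), CLDN7 (1.68 and 1.76), OCLN (1.36 and 1.47), CLDN23 (1.36 and 1.70), F11R (1.39 and 1.57), JUP (2.08 and 2.17) and CTNNA1 (2.07 and 2.15) rose in both forms, GJB5 (1.51) passed in Y305A, and MARVELD2 (tricellulin, 0.76), TJP1 (ZO-1, 0.89) and CTNNB1 (1.02) in Y305A/dPY. GJA1 was lower in both (-1.29 and -1.25), at 0.0938 FPKM at most against 0.766 and 2.65.

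Without replicate 1 of the Y305A form 9 of its 10 calls were lost (CLDN4: 2.99, adjusted p = 0.079), and without replicate 1 of Y305A/dPY 11 of 12 (CLDN4: 3.49, adjusted p = 0.055). Without Puro vector replicate 1, 5 genes were higher in Y305A and 7 in Y305A/dPY. Against the Hygro vector neither form shared a call with these: EPCAM was higher in Y305A (2.59), and CLDN1 (-2.21), DSC2 (-1.87), DSG3 (-1.87) and PERP (-2.05) were lower, where 2.61% of all loci passed. The same 5 genes passed in Y305A/dPY, in the same directions, where 2.69% of loci did.

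Deletion of the PY motif, which removes YAP binding, gave no call among these genes, with SRF binding intact or without it, and none had an unadjusted p under 0.05 (limma). Of all loci 0.236% passed in MRTFB dN dPY against MRTFB dN and 0.0152% in Y305A/dPY against Y305A. The differences of the 31 genes ran from -0.62 to 0.82 and from -0.70 to 0.41. At the upper end of the first was DSC2, at 58.6 and 60.1 FPKM in MRTFB dN against 111 and 100 in dPY (0.82 ± 0.40), and at the lower end of both was GJB2 (-0.62 ± 0.61 and -0.70 ± 0.61). The SE of these differences ran from 0.21 to 0.84 and from 0.21 to 0.68 on the log2 scale. A call needs a difference of several SE, so effects well above these SE could also have been missed. The difference between the 2 deletions likewise called none of the 31 genes, 0 at an unadjusted p under 0.05, and 0.0228% of loci. Against the Puro vector dPY was higher in 10 of the 31 genes and lower in 2, where 21% and 14.8% of loci passed, led by CTNNA1 (2.74 ± 0.36, adjusted p = 0.00035), PKP2 (2.28) and DSC2 (2.23). Against the Hygro vector it was higher in 4 and lower in 7, where 20.5% passed, and CXADR, PKP2 and ESRP1 were higher and TJP3 and GJB5 lower against both vectors.

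Some genes spanned a narrow range. MARVELD2, at a locus shared with RAD17, ran from 8.82 to 19 FPKM over the 14 libraries, CLDN12 from 11.7 to 26.2, MARVELD3 from 9.8 to 25.7, TJP1 from 6.84 to 21, and ESRP2, at a locus shared with a microRNA, from 11.5 to 24.3. CLDN12, MARVELD3, DSG2 and GJB2 passed in no comparison above, and ESRP2 passed in dPY against the Hygro vector (-0.88). CLDN4 spanned the widest range, from 21.5 to 2220 FPKM, followed among strand genes by CLDN7, from 126 to 1363. DSG3 was at 216 and 193 in the Hygro vector and at 34.8 to 114 in every other library.

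Other junction genes were read from lists that do not overlap these 34. Of 20 tested among 34 other tight junction and polarity genes, 2 were higher and 3 lower in Y305A against MRTFB dN, and 3 and 3 in Y305A/dPY against dPY, 2 comparisons in which 6.13% and 6.74% of all loci were higher and 10.6% and 10.7% lower. MAGI1, a scaffold at a locus shared with its antisense gene, fell from 26.3 and 23.7 FPKM to 1.76 and 1.01 (-3.46 ± 0.33, adjusted p = 3.9e-05). Of 7 tested other connexins and pannexins 3 and then 2 were higher and none lower. GJA5, connexin 40, went from 6.33 and 8.39 FPKM to 135 and 23 (2.79 ± 0.71, adjusted p = 0.021). The 4 tested other desmosomal genes showed 0 higher and 1 lower, then none; PPL, periplakin, was at 169 and 122 in MRTFB dN and 79.4 and 66.1 in Y305A without passing.

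Of 13 tested adherens junction genes 7 rose and none fell in MRTFB dN against the Puro vector, and 3 fell in Y305A against MRTFB dN, where 21.8%, 15% and 10.6% of all loci did so. Against the Hygro vector 4 were higher and 1 lower in MRTFB dN. VCL, vinculin, an actin-linked adhesion protein, stood at 464 and 481 FPKM in MRTFB dN against 99.5 and 81.2 in Y305A (-2.38 ± 0.36, adjusted p = 0.00088), and was higher in MRTFB dN than in the Hygro vector (2.58 ± 0.36, adjusted p = 0.0005). CDH1, E-cadherin, had 312 and 250 against 309 and 162, and its groups overlapped.

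Among 10 transcriptional regulators of junction genes 7 were tested, and SNAI1, ZEB1 and ZEB2 were below the filter. With YAP 5SA 2 of the 7 rose and 3 fell against the Hygro vector, where 3.93% and 4.32% of all loci did so. In Y305A against MRTFB dN 1 was higher and 1 lower, against 6.13% and 10.6% of loci. In Y305A/dPY against dPY 2 were higher and 1 lower, against 6.74% and 10.7%. SNAI2, the repressor Slug, was at 3.63 and 5.82 FPKM in the Hygro vector, 5.87 and 12.5 in the Puro vector, 14.5 and 16.4 in YAP 5SA (1.55 ± 0.34 against the Hygro vector, adjusted p = 0.023), 5.18 and 5.54 in MRTFB dN and 0.464 and 0.817 in Y305A (-1.96 ± 0.34, adjusted p = 0.0029). It was at 8.84 in the 1 dPY library with a value and at 0.582 and 1.01 in Y305A/dPY (-2.46 ± 0.41, adjusted p = 0.0025). The activator GRHL1 moved the other way: against the Hygro vector it fell with YAP 5SA, from 7.82 and 6.97 to 2.07 and 2.45 (-1.37 ± 0.27, adjusted p = 0.012), and was higher in Y305A, at 3.81 and 3.19 against 1.23 and 1.49 (0.93 ± 0.27, adjusted p = 0.035). GRHL3 fell with YAP 5SA against the Hygro vector (-2.26 ± 0.50, adjusted p = 0.021) and was higher in Y305A/dPY than in dPY (1.86 ± 0.50, adjusted p = 0.026). OVOL1, a repressor of mesenchymal genes, fell with YAP 5SA against that vector (-2.70 ± 0.41, adjusted p = 0.0044), and TWIST1 rose (1.49 ± 0.21, adjusted p = 0.0027). Against the Puro vector these 5 genes did not pass with YAP 5SA: SNAI2 stood at 0.77 (adjusted p = 0.17), GRHL1 at -0.32 (adjusted p = 0.47), GRHL3 at 0.32 (adjusted p = 0.72), OVOL1 at -0.40 (adjusted p = 0.57) and TWIST1 at -0.13 (adjusted p = 0.73). Apart from SNAI2 their groups overlapped there, with GRHL1 at 4.45 and 2.03, GRHL3 at 4.19 and 1.04, OVOL1 at 1.35 and 0.214 and TWIST1 at 3.68 and 3.93 FPKM in the Puro vector. GRHL2 and OVOL2 passed neither with YAP 5SA against the Hygro vector nor in Y305A against MRTFB dN. GRHL2 was at 12.3 and 8.5 FPKM in the Hygro vector and 17.6 and 17.4 in YAP 5SA. OVOL2 was at 11.8 and 7.37 against 13.8 and 13.8. From MRTFB dN to Y305A GRHL2 went from 6.77 and 10.1 to 4.98 and 6.68. OVOL2 went from 8.48 and 10.6 to 6.57 and 5.4, and OVOL1 from 2.55 and 2.3 to 1.9 and 0.802. The part of these regulators in the levels of the junction genes was not tested.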

How the data were processed

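Poly(A) RNA libraries made with a strand-specific kit were sequenced as paired reads, per the labels' protocols. The deposited table holds FPKM for 34071 loci in 14 libraries. Bowtie, TopHat, Cufflinks, Cuffnorm and hg19 are named in the submitters' processing notes; versions, annotation and strand setting are not given in the sources used here. The 6528 unnamed loci were left out. FPKM carries no counts, so absolute depth is unknown and no counting interval is given. Relative depth came from the most frequent ratio between low values.

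Zeros of MRTFB dN dPY replicate 1 on chromosome 7 after PPIA and on chromosomes 8, 9 and X (4051 named loci) were treated as missing. Of 1550 named loci there with a median of at least 1 FPKM in the other 13 libraries, 1549 were at 0. RefSeq tables for GRCh38.p14 served only for gene names, their order and promoter sequences.

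The 13137 named loci that reached 1 FPKM in 2 or more libraries entered limma 3.58.1 (R 4.3.3) as log2(FPKM + 1). The model had 7 groups and all 14 libraries in 1 fit, with an intensity trend in the empirical Bayes step. Tests were two-sided and Benjamini-Hochberg adjusted over these loci in each comparison, and values under 0.05 passed. Python 3.11.15 with pandas 2.3.3 and numpy 2.4.6 prepared the tables, and the fit was tested on simulated data. Groups overlap where any value of 1 lies within the range of the other. The genes and lists were chosen with earlier results of these data known. Named were all 34 genes, with library values for those that passed or stand for their role, and from each other list up to 4 passing genes, some of which are not reported here. The loci of CTNND1, MARVELD2 and ESRP2 carry the names of other genes, and CLDN7, OCLN, TJP1, CXADR, PKP2, CTNNA1, PERP and GJA1 have pseudogenes in RefSeq that could share reads.

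The fit was repeated without the filter, with a pseudocount of 0.1, after median-of-ratios scaling, on the compared groups only, without the trend, without multi-gene loci, with the zeros kept, with a replicate block, against the other vector, for MRTFB dN directly against YAP 5SA (chosen after the data were seen), and with each library left out, which leaves 1 sample in a group that is assumed to vary like the others.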

Additional observations from a re-analysis of the deposited data

How the results depend on the processing

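Fitted on the compared groups only, the genes called were 0 higher and 0 lower for YAP 5SA, 5 and 0 for MRTFB dN, 4 and 0 for dPY, 0 and 0 for Y305A and 0 and 0 for Y305A/dPY against their vectors, 0 lower for the Puro against the Hygro vector, and 4 lower for Y305A/dPY against dPY; 38 of 106 called values held. With the other vector as control the counts higher and lower were 3 and 1 for YAP 5SA, 6 and 7 for MRTFB dN, 4 and 7 for dPY, 1 and 4 for Y305A and 1 and 4 for Y305A/dPY, and 14 of 57 called values held; signs turned for DSC2 (0.08) and JUP (0.54) in YAP 5SA, DSC2 (-0.28) in MRTFB dN, CGN (-0.29) in dPY and JUP in Y305A (-0.44) and Y305A/dPY (-0.35). Keeping the zeros of the empty part turned ESRP1 in dPY against the Puro vector (-1.56) and gave 7 genes higher in Y305A/dPY against the Puro vector; 83 of 106 values held. Scaling by the median of ratios gave 2 lower in Y305A and in Y305A/dPY against the Puro vector. No intensity trend and the replicate block each gave 2 lower in the latter, the replicate block gave 7 higher, against 5, in Y305A against MRTFB dN, and 104 of 106 values held under the replicate block, 101 with a pseudocount of 0.1 and 94 with no filter. Same-numbered libraries deviated together among the MRTFB groups (correlations 0.30 to 0.64 over 6 group pairs) but not throughout (-0.15 to 0.64 over 21), and nothing in the labels pairs them. Leaving out 1 library gave, higher and lower, 0 to 1 and 1 to 6 for YAP 5SA, 7 to 11 and 0 to 1 for MRTFB dN, 7 to 11 and 0 to 2 for dPY, 1 to 11 and 0 to 1 for Y305A, 1 to 13 and 0 to 1 for Y305A/dPY, 0 to 2 and 1 to 6 for the vectors, 2 to 5 and 1 to 6 for Y305A against MRTFB dN, 4 to 6 and 2 to 5 for Y305A/dPY against dPY, and 7 to 14 for the difference of responses; the PY deletions stayed at 0. The cause of these changes was not tested.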
